A study of Mus musculus with 6 samples.

Results

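Keratins are the intermediate filament proteins of epithelial cells. They form a filament only as pairs of 1 acidic type I and 1 basic type II protein, and epithelia switch from one pair to another as cells leave the basal layer and differentiate. In stratified squamous epithelium, *Krt5* and *Krt14* encode the basal pair. *Krt4* and *Krt13* encode the suprabasal pair of internal squamous linings such as the esophagus, *Krt1* and *Krt10* that of the epidermis, and *Krt8* and *Krt18* the pair of simple epithelia. The keratin genes described here were all genes named by a single-gene probe set whose symbol is Krt followed by a digit, without the 4 stress keratin genes *Krt6a*, *Krt6b*, *Krt16* and *Krt17*. They numbered 48 of the 19938 genes measured, 26 of type I and 22 of type II, each with 1 probe set. One of them, *Krt74*, is annotated as a transcribed pseudogene.

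The signals came from microarrays hybridised with RNA of esophageal epithelium, taken from 6 mice at 3 months of age, on a mixed genetic background. In 3 animals both *Klf4* alleles were floxed and the ED-L2-Cre transgene was present (ED-L2-Cre/Klf4loxp/loxp), and the other 3 were Klf4loxp/loxp littermates with no Cre. Replicate 1 of either genotype was male and the other 2 were female, with 1 animal to an array. The ED-L2 promoter drives Cre in squamous epithelium, so the cells beneath it keep the floxed gene, and all 6 animals carry the floxed alleles. *Klf4* encodes a transcription factor of differentiating epithelial cells.

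Signal of the targeted gene itself was no lower in the mutant group. *Klf4* read 10.28, 10.50 and 10.28 on the arrays labelled mutant, against 9.75, 10.15 and 10.06 on those labelled control (log2 signal). Its difference was 0.37 ± 0.13 (moderated SE, limma adjusted p = 0.314). Which stretch of *Klf4* is flanked by loxP sites, and where its probes lie, is not given, and probes outside the deleted stretch check nothing. Every direction below therefore rests on the labels.

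Of 7 markers of suprabasal squamous epithelium, 6 were bright on all 6 arrays and *Crnn* was dim, while markers of fibroblasts and smooth muscle had lower means in the mutant group. The 7 include *Krt4* and *Krt13*, which are keratin genes counted here. Summed over the 7, linear signal was 52810 to 57970 on the arrays labelled mutant and 52860 to 59020 on those labelled control. Of 7 basal squamous markers, 3 of them keratin genes counted here, 1 had a higher mean and 6 a lower one. None of the basal markers passed, with sums of 12870 to 15790 on the arrays labelled mutant and 15020 to 16030 on those labelled control. All 9 measured fibroblast markers were lower, 3 of them past the threshold, where 0.672% of all genes fell, and their summed signal was 2169 to 2505 on the arrays labelled mutant and 3916 to 6606 on those labelled control. All 6 smooth muscle markers were lower and none passed, with sums of 1380 to 2272 on the arrays labelled mutant and 2801 to 4681 on those labelled control. All 7 skeletal muscle markers were lower and none passed, and their sums differed widely between animals, at 808.3 to 7885 on the arrays labelled mutant and 740.4 to 21500 on those labelled control. Of 6 immune markers, the macrophage gene *Cd68* rose (1.11 ± 0.17, adjusted p = 0.0304) and *Lyz2*, the lysozyme gene of myeloid cells, fell (-1.57 ± 0.27, adjusted p = 0.0463). The part of these markers in the differences below was not tested. In such bulk samples fewer cells of a type and less RNA per cell cannot be told apart.

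Promoter sequences of keratin genes are shown first for 3 members on which the results below turn. Among the keratin genes, *Krt76* had the smallest p-value, *Krt75* differed most upward without passing, and *Krt13* had the highest control mean. The sequences are the 250 bases before the annotated start site in RefSeq (mouse build GRCm38.p6), read 5′ to 3′ on the gene's strand. Capitals mark CACCC or its reverse complement GGGTG, the core of the sites that Krüppel-like factors bind, and TATAAA, the TATA box. For *Krt13*, RefSeq lists 2 start sites, and the sequence before the outer one is shown. The lines stand for chr15:101892921-101893170, chr15:101573905-101574154 and chr11:100121567-100121816, all on the minus strand.
Krt76: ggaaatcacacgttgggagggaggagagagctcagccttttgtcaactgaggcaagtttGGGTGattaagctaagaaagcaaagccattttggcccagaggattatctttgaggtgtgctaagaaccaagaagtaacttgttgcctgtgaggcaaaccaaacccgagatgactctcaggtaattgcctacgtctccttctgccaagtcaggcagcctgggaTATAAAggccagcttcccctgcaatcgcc
Krt75: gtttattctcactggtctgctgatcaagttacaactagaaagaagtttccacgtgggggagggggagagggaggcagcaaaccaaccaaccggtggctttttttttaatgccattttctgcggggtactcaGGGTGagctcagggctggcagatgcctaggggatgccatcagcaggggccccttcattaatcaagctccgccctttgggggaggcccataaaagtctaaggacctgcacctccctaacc
Krt13: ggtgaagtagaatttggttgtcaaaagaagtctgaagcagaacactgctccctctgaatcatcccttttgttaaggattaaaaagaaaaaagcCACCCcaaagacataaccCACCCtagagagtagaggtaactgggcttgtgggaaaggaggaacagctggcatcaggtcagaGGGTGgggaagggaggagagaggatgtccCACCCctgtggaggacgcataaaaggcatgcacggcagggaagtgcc

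*Krt76* holds 1 CACCC match, on the opposite strand at position -191 from the start site, and a TATAAA on its own strand at -29. *Krt75* holds 1 CACCC match and no TATAAA, and the outer *Krt13* sequence holds 4 CACCC matches. Of the 48 genes, 36 matched a RefSeq promoter, with 37 sequences in all. CACCC was found on either strand in 29 of these 37, or 78.4%, and in 52.0% of all 32851 promoter sequences of this length. TATAAA on the gene's own strand, starting between 40 and 20 bases before the start, was found in 13 of the 37 (35.1%) and in 1.99% of all promoters. The longer form CACNCCC, which can overlap CACCC, was in 29.7% of the keratin promoters and 26.1% of all, and the AP-1 site TGANTCA in 5.41% and 6.75%. A match describes these letters only.

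The keratin genes spanned nearly the full range of signal, and the brightest were those of internal squamous epithelium. On the log2 scale, control means ran from 3.14 for *Krt24* to 13.78 for *Krt13*, where the median over all genes was 5.44. The order that follows is one of probe set signal, which also depends on each probe set's own binding and does not order transcript amounts. *Krt13* and *Krt4* led with 13.81 ± 0.07 and 13.64 ± 0.07 on the arrays labelled mutant, against 13.78 ± 0.11 and 13.68 ± 0.09 on those labelled control (SD, n = 3 each). Their control signals overlapped each other, and those of *Krt5* lay below both.

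Next in the control order came *Krt5*, *Krt78*, *Krt15*, *Krt14*, *Krt80*, *Krt23*, *Krt1*, *Krt10*, *Krt32* and *Krt8*. *Krt78* encodes a type II keratin of suprabasal cells and *Krt15* a type I keratin of basal cells. *Krt5* averaged 12.42 ± 0.18 on the arrays labelled mutant and 12.53 ± 0.03 on those labelled control, and *Krt14* 11.44 ± 0.35 and 11.27 ± 0.18 (SD, n = 3 each). Neighbours in this order were often not separated: the control signals of *Krt78* and *Krt15* overlapped, as did those of *Krt23*, *Krt1*, *Krt10* and *Krt32* pair by pair along the order. Over all 48 genes, 14 of the 47 pairs of neighbours had control signals that did not overlap.

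Many keratin genes of hair, and some of simple epithelia, were dim. The mean over 6 arrays of 18 of the 48 genes lay at or below 4.72, the 40th percentile of all genes, and 11 of these 18 were among the 22 hair and hair root sheath keratin genes and 2 among the 6 of simple epithelia. Among those of simple epithelia, *Krt18*, *Krt19*, *Krt7* and *Krt20* had control means of 4.67, 4.78, 4.80 and 3.30, while *Krt8* had 6.82 and *Krt23* 9.28. The epidermal gene *Krt2* averaged 3.47 on control arrays. *Krt32*, a type I keratin gene of the hair cuticle, was the brightest of the hair group with 7.91. For dim probe sets a small difference may be compressed, and no gene was left out for low signal.

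**Figure D1:**
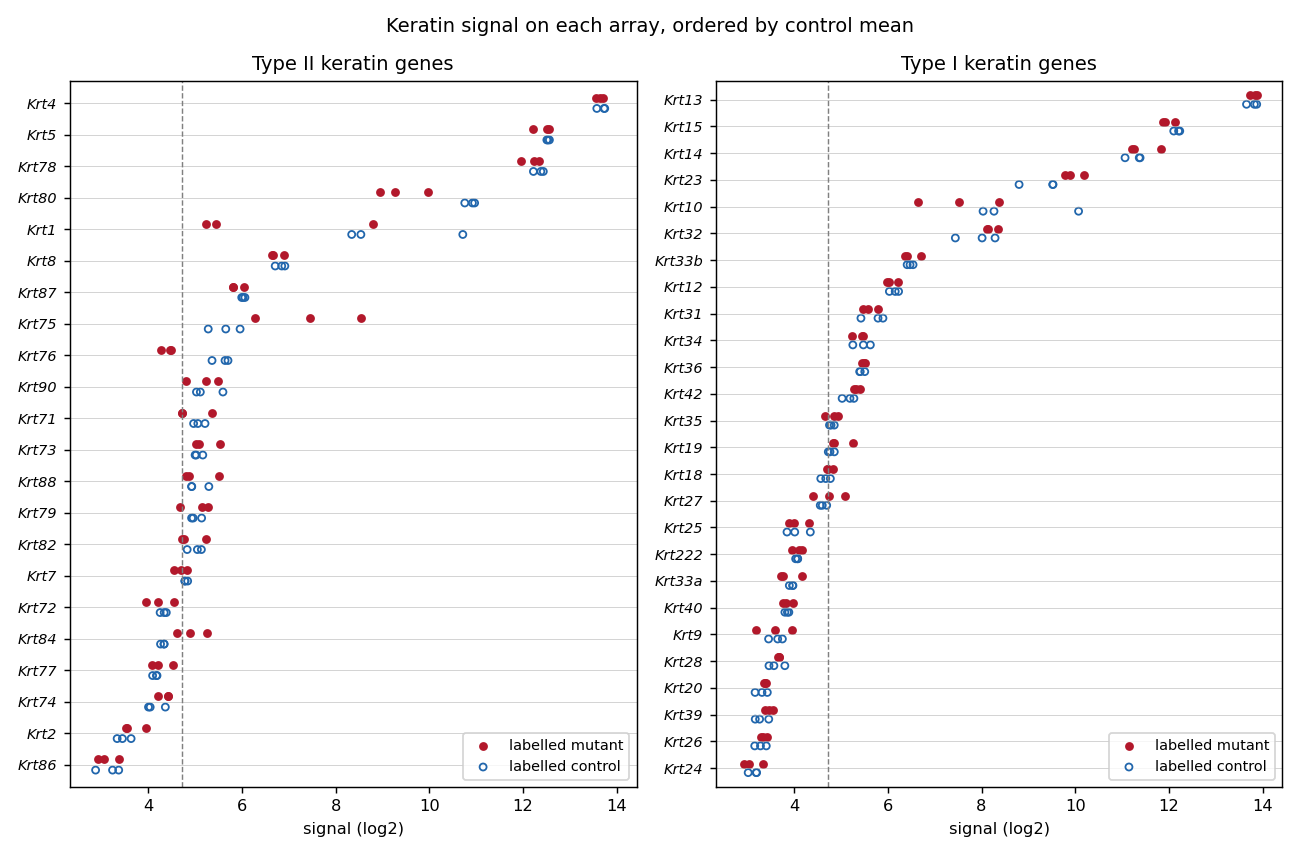
Log2 signal of the 48 keratin genes on each array, type II on the left and type I on the right, ordered by control mean from the top. Filled points are the 3 arrays labelled mutant, open points the 3 labelled control, and the dashed line is the dim limit of 4.72. For *Krt80* and *Krt76* all filled points lie left of all open ones, for *Krt75*, *Krt23* and *Krt84* right of them, and *Krt1* and *Krt10* spread most widely.

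The comparison of arrays labelled mutant against control asked which keratin genes changed when *Klf4* was targeted. Of the 48, 2 passed, both of them type II genes that fell, where 1.04% of all genes passed in either direction and 0.672% fell. They are *Krt80* and *Krt76*, and 46 did not pass. None rose in limma, where 0.366% of all genes rose. At an unadjusted p under 0.05, 3 were higher and 3 lower, where 5.79% and 6.63% of all genes were, or 12.4% together. Groups that did not overlap were found for 6 of 48 keratin genes, or 12.5%, against 18.1% of all genes. Of these 6, 4 were higher (10.1% of all genes) and 2 lower (8.0%), so this share was near or below the background.

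*Krt80* encodes a type II keratin of differentiated epithelial cells. It read 8.94, 9.27 and 9.96 on the arrays labelled mutant, against 10.97, 10.76 and 10.92 on those labelled control (log2). All mutant arrays lay below all control arrays, and the mutant arrays spread over a wider range. The difference was -1.49 ± 0.24 (moderated SE, 95% interval -2.04 to -0.93), a 2.81-fold lower signal, with a limma adjusted p of 0.0370. The call rests on nearly every animal: the adjusted p was 0.0845 without mutant 1, 0.133 without mutant 2, 0.0790 without control 1, 0.0823 without control 2 and 0.160 without control 3. It was 0.00880 without mutant 3, whose signal lay nearest the controls. In the 4 females alone the difference was -1.22 (adjusted p = 0.136).

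*Krt76* encodes a type II keratin of suprabasal cells of the oral lining, chiefly the palate. It read 4.48, 4.28 and 4.47 on the arrays labelled mutant, against 5.36, 5.70 and 5.64 on those labelled control. The groups were tight and lay apart, with means of 4.41 ± 0.12 and 5.57 ± 0.18 (SD, n = 3 each). The difference was -1.16 ± 0.12 (moderated SE, 95% interval -1.44 to -0.87), a 2.23-fold lower signal (limma adjusted p = 0.0118). The mutant signals lie under the dim limit of 4.72, so the size of this fold is uncertain. The call was lost without control 3 (-1.12, adjusted p = 0.0642), and it held without any other single array and in the females alone (-1.29, adjusted p = 0.0309).

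The epidermal pair *Krt1* and *Krt10* varied more between animals than any other of the 48 genes. *Krt1* read 5.23, 8.80 and 5.45 on the arrays labelled mutant, against 8.34, 8.54 and 10.71 on those labelled control. *Krt10* read 7.51, 8.36 and 6.64 on the arrays labelled mutant, against 8.03, 8.27 and 10.07 on those labelled control. For both genes control 3 was the highest array and mutant 2 lay among the controls, so the groups overlapped.

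Their ranges over the 6 arrays, 5.48 and 3.44 on the log2 scale, were the widest of the 48. The difference of *Krt1* was -2.71 ± 1.01 (95% interval -5.05 to -0.36, adjusted p = 0.322), the lowest of the family, and that of *Krt10* was -1.29 ± 0.60 (95% interval -2.68 to 0.11, adjusted p = 0.451). Neither passed. The difference of *Krt1* was -3.86 without mutant 2 and -1.95 without control 3. Without control 3 the difference of *Krt10* was -0.65, and without mutant 3 it was -0.85.

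The largest upward differences were those of *Krt75*, *Krt23* and *Krt84*, and none of them passed. *Krt75*, a type II keratin gene of the companion layer of the hair follicle, read 7.46, 8.55 and 6.28 on the arrays labelled mutant, against 5.28, 5.96 and 5.65 on those labelled control. Every mutant array was above every control array, while the mutant arrays differed among themselves by more than the controls did. The difference was 1.80 ± 0.50 (moderated SE, 95% interval 0.62 to 2.97, adjusted p = 0.179).

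*Krt23*, an inducible type I keratin gene of simple epithelia, read 9.79, 10.19 and 9.88 on the arrays labelled mutant, against 9.52, 8.80 and 9.52 on those labelled control. Its groups lay apart, and control 2 was the lowest array. The difference was 0.67 ± 0.21 (adjusted p = 0.237), and 0.43 without control 2. *Krt84*, a type II keratin gene of hair cuticle and tongue papillae, read 5.25, 4.90 and 4.61 on the arrays labelled mutant, against 4.26, 4.34 and 4.34 on those labelled control, a difference of 0.61 ± 0.16 (adjusted p = 0.154) at dim signal.

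*Krt42*, a type I keratin gene chosen for mention after its values were seen, was the only other member whose groups lay apart, with a difference of 0.17 ± 0.10. Hair follicle markers stood beside *Krt75* and *Krt84* as follows: 8 of 10 markers had a higher mean, the other 2 a lower one, and none passed. Their summed linear signal was 436.7 to 614.9 on the arrays labelled mutant and 358.5 to 381.0 on those labelled control. Groups lay apart for 4 of the 10, all higher, where 10.1% of all genes had such groups on the higher side. They were those of *Tchh*, *Msx2*, *Krtap5-2* and *Foxn1*, with differences of 1.32 ± 0.39, 0.59 ± 0.12, 0.40 ± 0.15 and 0.24 ± 0.10. Their limma adjusted p-values were 0.200, 0.0777, 0.323 and 0.351. *Tchh*, the trichohyalin gene of the inner root sheath, read 8.01, 6.403 and 6.50 on the arrays labelled mutant, against 5.75, 5.70 and 5.49 on those labelled control. On mutant 1, where it was highest, *Tchh* was the brightest of the 10 markers and so weighed most in the sum. Of the 10, 5 were dim, among them *Hoxc13*, a regulator of hair keratin genes, at 3.60 ± 0.14 on the arrays labelled mutant and 3.50 ± 0.19 on those labelled control (SD, n = 3 each). Their part in the differences of *Krt75* and *Krt84* was not tested.

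**Figure D2:**
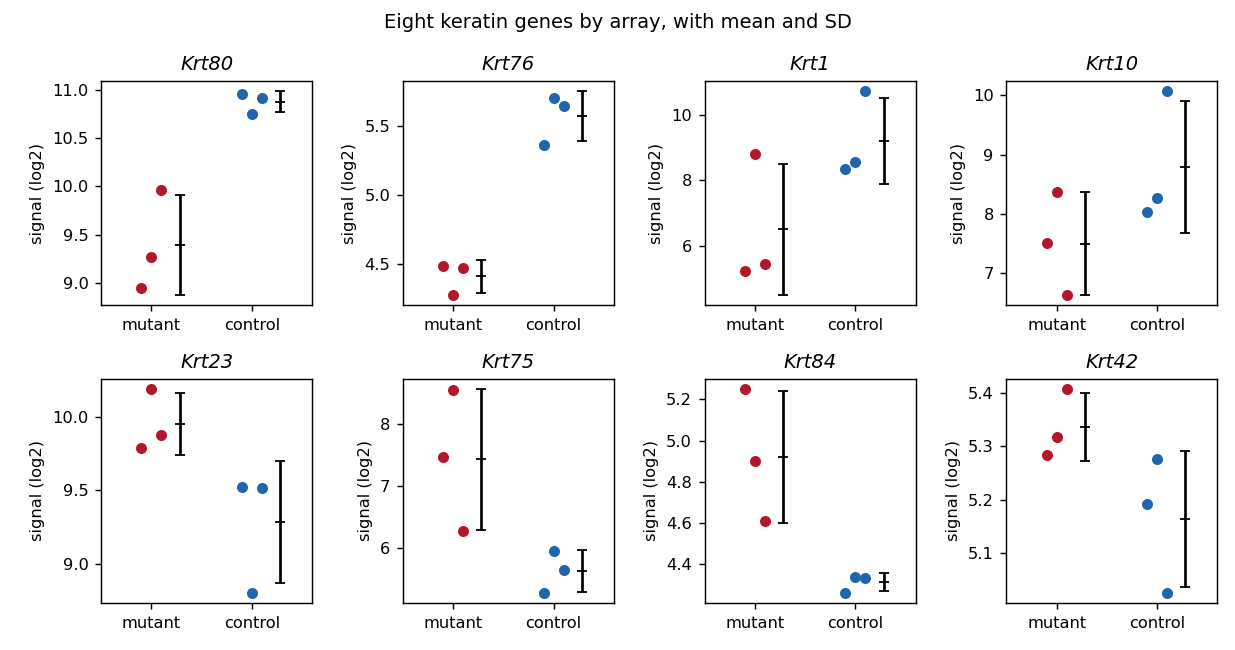
Log2 signal of 8 keratin genes on each array, mutant left and control right, with a dash and bar for mean and SD (n = 3 each); each panel has its own axis. *Krt80* and *Krt76* have all mutant points below the control points, *Krt1* and *Krt10* overlap between groups, and *Krt23*, *Krt75*, *Krt84* and *Krt42* have all mutant points above.

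The keratin genes with the highest signal differed little between the groups. *Krt13* differed by 0.03 ± 0.10 and *Krt4* by -0.04 ± 0.10 (log2, moderated SE), with 95% intervals of -0.21 to 0.26 and -0.27 to 0.18. The sign of *Krt13* flipped with quantile normalization. Signals near the top of the array's range may be compressed, so these small differences do not show that the genes were unchanged. *Krt78* differed by -0.16 ± 0.13 and *Krt15* by -0.21 ± 0.10. *Krt15* read 11.88, 11.91 and 12.12 on the arrays labelled mutant, against 12.21, 12.10 and 12.23 on those labelled control. For *Krt15* only mutant 3 reached into the control range (adjusted p = 0.482).

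The basal genes *Krt5* and *Krt14* differed by -0.11 ± 0.11 and 0.16 ± 0.19 (adjusted p = 0.764 and 0.794). *Krt14* was highest on mutant 1, at 11.84, and without that array its difference was -0.04. Of the simple keratin genes, *Krt8* differed by -0.09 ± 0.11, *Krt18* by 0.08 ± 0.10, *Krt7* by -0.10 ± 0.10, *Krt19* by 0.20 ± 0.14 and *Krt20* by 0.07 ± 0.10. None of these passed. The summed linear signal of 12 markers of simple or glandular epithelium, 4 of them keratin genes counted here and 8 dim, was 767.2 to 781.0 on the arrays labelled mutant and 566.8 to 656.2 on those labelled control, and its part was not tested. Of the 12, 7 had a higher mean and 5 a lower one, and none passed. *Epcam*, an epithelial adhesion gene, was the brightest of the 12 and so weighs most in the sum. It was the only one whose groups lay apart, at 8.84 ± 0.05 on the arrays labelled mutant and 8.21 ± 0.17 on those labelled control (SD, n = 3 each, limma adjusted p = 0.0547). Apart from the 7 genes with the largest absolute differences, the remaining 41 lay between -0.21 and 0.28, with adjusted p-values between 0.482 and 0.99.

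Type I and type II genes were set side by side. Of the 26 type I genes, 17 had a higher mean in the mutant group and 9 a lower one, none of them called, with a median difference of 0.02. Of the 22 type II genes, 8 had a higher and 14 a lower mean, 2 of them called, and their median was -0.08. Over all genes, 11072 were higher and 8866 lower, with a median of 0.02. The type I median was -0.04 without mutant 3 and -0.0023 without control 2, and that of type II was -0.16 without mutant 3 and -0.01 without mutant 1.

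Single arrays moved many keratin genes together by small amounts. Mutant 3 held the highest of the 6 signals for 21 of the 48 genes and mutant 1 the lowest for 18. Relative to each gene's mean over 6 arrays, the median keratin signal was -0.09, -0.04 and 0.12 on the arrays labelled mutant and -0.03, 0.03 and 0.01 on those labelled control. These shifts are as large as the type medians, and their part in them was not tested.

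Within-array differences of the textbook pairs ask whether both partners moved alike. The type II minus type I signal is no ratio of transcripts, but its change between groups shows unequal change of the 2 probe sets. For *Krt1* minus *Krt10* it was -2.28, 0.44 and -1.19 on the arrays labelled mutant, against 0.31, 0.27 and 0.64 on those labelled control (exact permutation p = 0.300, two-sided). Mutant 2 lay among the controls, while on mutants 1 and 3 the signal of *Krt1* was lower relative to *Krt10* than on any control.

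For *Krt8* minus *Krt18* it was 1.92, 1.96 and 2.07 on the arrays labelled mutant, against 2.17, 2.14 and 2.14 on those labelled control. The groups lay apart by a small step (exact permutation p = 0.1, the smallest that 3 arrays against 3 allow). *Krt18* was dim, with a mean of 4.71 over 6 arrays, so the size of this step is uncertain. The same p was found for *Krt4* minus *Krt13*, at -0.17, -0.18 and -0.17 on the arrays labelled mutant, against -0.13, -0.08 and -0.10 on those labelled control, but quantile normalization turned the sign of this change (-0.07 as deposited, 0.02 after it). For *Krt5* minus *Krt14* the means were 0.98 ± 0.27 and 1.26 ± 0.16 (SD, n = 3 each), with overlapping groups (exact permutation p = 0.300). None of the 4 pairs could pass a threshold of 0.05 in this design.

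In the order of the RefSeq annotation (GRCm38.p6), the type I genes other than *Krt18* lie together on chromosome 11, and the type II genes and *Krt18* lie together on chromosome 15. Among the 48 genes, those that differed most were not each other's neighbours in the type II cluster. *Krt80* stands at its end, next to *Krt7* (-0.10 ± 0.10), and *Krt76* lies between *Krt77* (0.12 ± 0.13) and *Krt4*. *Krt1*, between *Krt2* (0.20 ± 0.15) and *Krt77*, is 2 places from *Krt76*. *Krt75* (1.80 ± 0.50) lies beside the stress keratin genes *Krt6b* and *Krt6a*, which are outside the 48 and differed by 3.27 and 3.30.

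The 4 stress keratin genes, which mark wounded or hyperproliferative epithelium, differed by 0.51 to 3.30 and none passed. The groups of all 4 lay apart on the higher side, where 10.1% of all genes had such groups. *Krt6b* read 12.71, 11.61 and 11.75 on the arrays labelled mutant, against 6.53, 9.88 and 9.85 on those labelled control (adjusted p = 0.153). *Krt6b* passed without control 1 (2.15, adjusted p = 0.0390) and in the females alone (1.81, adjusted p = 0.0186), and the difference of *Krt16* was 0.37 without mutant 1. The genotype difference in females minus that in males was -4.37 for *Krt6b* and -4.61 for *Krt16* (interaction adjusted p = 0.0226 and 0.0299, limma), with 1 male of each genotype. Of the arrays labelled mutant, *Krt6b* was highest on mutant 1, whereas *Krt75* was highest on mutant 2. On the control arrays *Krt75*, *Krt6b* and *Krt6a* were all lowest on control 1 and highest on control 2. Type II keratins resemble each other in sequence, and how far probe sets of such genes share signal was not tested.

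**Figure D3:**
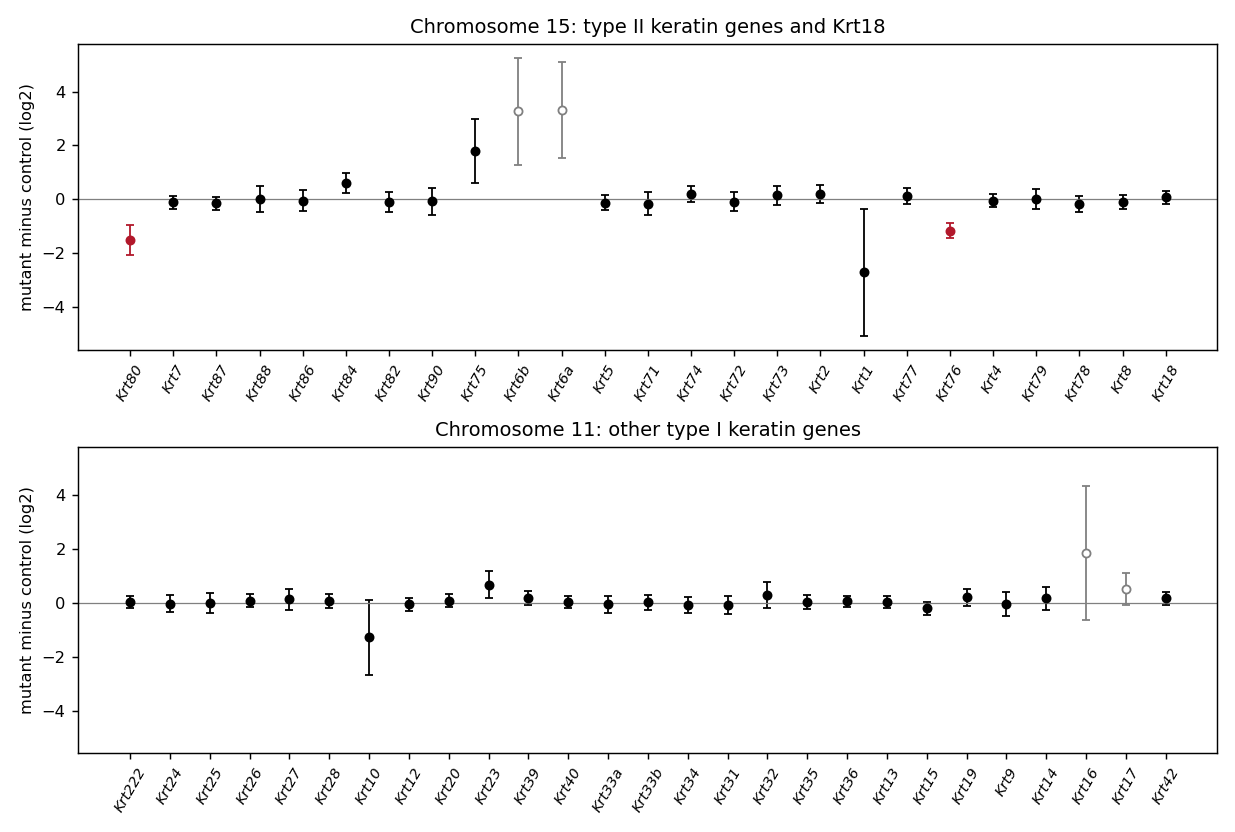
Mutant minus control difference (log2) of each measured keratin gene with its 95% interval, in annotated order along chromosome 15 (top) and chromosome 11 (bottom); spacing is by order, not distance. Red points passed an adjusted p of 0.05, and grey open points are the 4 stress keratin genes. *Krt80* and *Krt76* are the red points, *Krt1* has the lowest point and the widest interval among the 48, the interval of *Krt10* reaches just past 0, and *Krt75* stands above 0 beside *Krt6b* and *Krt6a*.

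Keratin filaments are anchored and bundled by linker proteins, and 27 genes for linkers and for associated proteins were measured. The list includes *Vim* and *Des*, which also count among the other intermediate filament genes below. It also holds genes that are not filament linkers, such as *Krtcap2*, *Krtcap3* and *Krtdap*, which are named for keratinocytes. Of the 27, 2 fell, 0 rose and 25 did not pass (0.672% and 0.366% of all genes fell and rose). The median difference was -0.08, against 0.02 over all genes. The groups did not overlap for 13 of the 27, where 18.1% of all genes had such groups. Of these 13, the mutant arrays lay higher for *Tchh*, *Krtcap2*, *Fam83h* and *Pkp2*, and lower for the rest. *Evpl* encodes envoplakin, a plakin that ties keratin filaments to the desmosome and the cornified envelope. It read 9.0, 9.54 and 9.60 on the arrays labelled mutant, against 10.39, 10.37 and 10.47 on those labelled control, with no overlap.

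The difference of *Evpl* was -1.03 ± 0.16 (adjusted p = 0.0370), and its adjusted p was 0.168 without control 3 and between 0.0603 and 0.0875 without mutant 2, mutant 3, control 1 or control 2. *Hrnr*, encoding hornerin, a filaggrin-like protein of the cornified layer, read 9.52, 10.99 and 9.92 on the arrays labelled mutant, against 12.11, 12.05 and 12.48 on those labelled control (-2.07 ± 0.34, adjusted p = 0.0436). Its call was lost without any single array other than mutant 2, at adjusted p-values between 0.0752 and 0.181. In the females alone neither *Evpl* (adjusted p = 0.0723) nor *Hrnr* (adjusted p = 0.134) passed. The desmosomal genes *Dsp*, *Pkp1*, *Pkp3* and *Jup*, named after their values were seen, differed by -0.06, -0.08, 0.02 and 0.02 and did not pass. *Pkp2*, likewise named afterwards, differed by 0.27 ± 0.13 at dim signal. In the same list, *Ppl* and *Cdsn* differed by -0.40 ± 0.11 and -0.78 ± 0.15. The groups of *Pkp2*, *Ppl* and *Cdsn* lay apart, and none passed (limma adjusted p = 0.483, 0.175 and 0.0701). Those of *Dst*, *Macf1* and *Plec* lay apart on the lower side, with differences of -0.84 ± 0.22, -0.60 ± 0.18 and -0.44 ± 0.15. These did not pass either (limma adjusted p = 0.148, 0.201 and 0.260).

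Transcription factors that act on squamous keratin genes gave no call. Of 22 measured, *Klf4* among them, 17 had a higher and 5 a lower mean on the mutant side, with a median of 0.14 and 0 calls in limma. Of all 19938 genes, 11072 had a higher mean. Groups lay apart for 8 of the 22, against 18.1% of all genes. The smallest p-values were those of *Grhl3*, encoding a grainyhead-like factor of barrier formation, and *Sox2*, a factor of esophageal progenitor cells. *Grhl3* read 10.26, 10.53 and 10.69 on the arrays labelled mutant, against 11.02, 10.98 and 10.81 on those labelled control, a difference of -0.44 ± 0.13 (adjusted p = 0.213). *Sox2* read 10.001, 10.03 and 9.46 on the arrays labelled mutant, against 9.31, 9.25 and 9.40 on those labelled control, a difference of 0.51 ± 0.16 (adjusted p = 0.231). The groups of both genes lay apart.

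**Figure D4:**
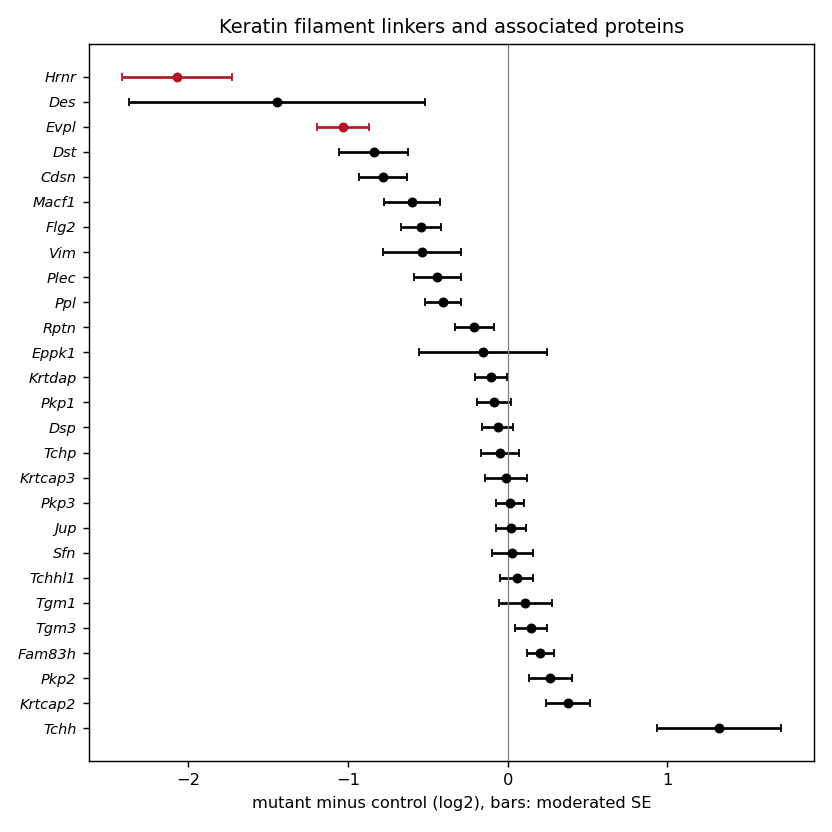
Mutant minus control difference (log2) of 27 genes for keratin filament linkers and associated proteins, with the moderated SE as bars, from the lowest at the top to the highest at the bottom. The 2 red points passed an adjusted p of 0.05: *Hrnr* at -2.07 and *Evpl* at -1.03.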

How the data were processed

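The authors deposited log2 values for 28853 probe sets on 6 arrays, made from biotin-labelled RNA that was amplified from poly(T)-primed cDNA, per the labels' protocols. Per the submitters' processing notes, Partek 6.4 was used. How background was corrected and how arrays were normalized and summarized is not stated, and these steps affect dim signals most. The log2 scale was read from the values (medians 5.01 to 5.13, maxima 13.99 to 14.67). Precision is limited by the number of arrays.

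Gene symbols came from GEO's annotation of the array and were brought up to date by Entrez ID, for which 21698 matched and 91 did not. A single gene was named by 21789 probe sets and several by 1621 (no keratin among them), while 5443 had no name here. The probe set with the highest mean stood for each gene. Differences, mutant minus control, were fitted over all 19938 genes with limma 3.58.1 in R 4.3.3 (lmFit, eBayes, two-sided, genotype only, 7.58 degrees of freedom after moderation), and p-values were adjusted by Benjamini-Hochberg across the whole table, with calls made under 0.05. The labels do not say whether same-numbered animals share a litter, and same-numbered arrays did not deviate together (correlations across genes -0.17, 0.09 and -0.10), so no block was used. The steps were tested on simulated data. Python 3.11.15 and matplotlib 3.10.9 served for sequences and plots.

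The members and gene lists were chosen with earlier results of these data known. Genes were named by rule: passing members, the 12 with the highest control mean, the 6 with the smallest p among those not passing, 20 textbook keratins, *Klf4*, the stress keratins, and up to 4 passing genes per list or 2 with the smallest p. A genotype by sex interaction called none of the 48 genes (lowest adjusted p = 0.859, limma; 0 at an unadjusted p under 0.05), and it called 9 of all genes, among them *Krt6b* and *Krt16*; each genotype holds 1 male. Alternatives covered normalization, centring, a filter on dim genes, probe set choice, replicate block, sex, variance model, array weights, females alone and each array left out.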

Additional observations from a re-analysis of the deposited data

How the results depend on the processing

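Across 17 alternatives, 20 of the 22 keratin genes named by rule passed in none, and none of the 48 rose past the threshold in any. Each keratin gene has 1 probe set, so other probe set rules kept its values, and only adjusted p-values could move. The count of 2 that fell was the same with them. This count also held with quantile normalization, median centring, dim genes left out, an intensity trend and array weights. It was 1 (*Krt76*) with the replicate block, with sex as a covariate and in the females alone, 0 without moderation, and 0 to 2 with 1 array left out. *Krt80* had an adjusted p of 0.0628 with the replicate block and 0.0531 with sex as a covariate, and *Krt76* 0.0494 and 0.0239. Without moderation, with 4 degrees of freedom in place of 7.58, both calls were lost (adjusted p = 0.325 and 0.178). The cause was not tested. Of the linker and associated genes, *Evpl* and *Hrnr* lost their calls with the replicate block (adjusted p = 0.0669 and 0.0744) and without moderation (0.292 and 0.335).

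Among the named keratin genes and pairs, signs flipped for 5 small, uncalled differences and for 1 pair, and the type I median ranged from -0.036 to 0.065 with 1 array left out; the cause was not tested. *Krt13* was -0.023 with quantile normalization, -0.0018 with array weights and -0.037 to 0.071 with 1 array left out. *Krt4* was 0.027 in the females alone. *Krt79* was -0.030 with array weights and -0.087 to 0.20 with 1 array left out, and *Krt14* was -0.036 to 0.27 with 1 array left out. *Krt24* was 0.00033 with median centring and -0.16 to 0.050 with 1 array left out. *Krt4* minus *Krt13* changed by 0.023 with quantile normalization. The median over all genes was 0.02 as deposited and 0.06 after centring. With 3 arrays a group, and means of 18 genes under the dim limit, small changes could be missed.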

Other observations

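Genes for keratin-associated proteins of hair, chosen after the data were seen, were mostly dim. Of 44 Krtap genes, 35 lay under the dim limit, none passed in limma, 2 had an unadjusted p under 0.05 (both below the 1.04% and 12.4% of all genes), and the median difference was 0.01. Their brightest member, *Krtap17-1*, read 8.65 ± 0.24 on the arrays labelled mutant and 8.77 ± 0.05 on those labelled control (SD, n = 3 each). Of 15 genes for other intermediate filament proteins, none passed in limma and 1 had an unadjusted p under 0.05, again below those shares. The brightest was *Lmna*, encoding nuclear lamins A and C, at 10.75 ± 0.095 on the arrays labelled mutant and 10.52 ± 0.18 on those labelled control. *Vim*, the vimentin gene of mesenchymal cells, read 9.34 ± 0.22 on the arrays labelled mutant and 9.88 ± 0.50 on those labelled control (adjusted p = 0.440).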
